A study of Mus musculus with 19 samples.

Results

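The embryonic and adult globin genes of the mouse were followed through yolk sac, fetal liver and cystic embryoid bodies (cystic EBs). The 7 genes were taken by symbol from a table of 30455 RefSeq transcripts with 23337 gene symbols, and all 7 had a row. They are the embryonic alpha type gene Hba-x, the embryonic beta type genes Hbb-y and Hbb-bh1, the adult alpha genes Hba-a1 and Hba-a2, and the adult beta genes Hbb-b1 and Hbb-b2. The rule uses symbols alone.

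The study asked whether cystic EBs grown from embryonic stem (ES) cells model visceral yolk sac endoderm (ysE), and RNA was sequenced from 11 samples. FVB mice gave 2 libraries of visceral yolk sac (VYS) mesoderm at E9.25, 2 of ysE at that stage, 1 of ysE at E12.5 and 2 of liver at E12.5. Cystic EBs on a C57Bl/6x129 background gave 4 libraries, after 10 days (d10) and 15 days (d15) of differentiation from each of 2 ES cell clones, called A9 (XY, replicate A) and JN (XX, replicate B) here. DNA methylation came from 6 further samples, E12.5 ysE, E12.5 liver and d15 cystic EBs of the CastxFVB and the FVBxCast cross (EB clones CF C2 and FC A2), and H3K4me3 from 1 sample of whole FVB VYS at E12.5 and its input. The labels name no treatment and no engineered allele. Each tissue sample for RNA and for DNA methylation pooled a whole litter, and the VYS for H3K4me3 came from 2 litters. The ysE was separated from the mesoderm that holds the blood islands, whereas liver and cystic EBs are mixtures of cell types, and each EB series is 1 clone. Libraries of clone A9 and of liver were made with the ScriptSeq kit, those of clone JN, E9.25 ysE and mesoderm with the dUTP method, and E12.5 ysE without strand, so that clone, sex chromosomes and kit cannot be told apart within the cystic EBs. The summed RPKM of 8 yolk sac endoderm markers was 10808 to 43834 for ysE, 1637 and 2954 for liver and 186 to 1605 for the cystic EBs. The 5 liver parenchyma markers summed to 576 and 1219 RPKM in liver and to 1745 in E12.5 ysE, so that this list did not set liver apart from ysE. Counts summed to between 40453779 (E12.5 ysE) and 169981821 per library (replicate B of E9.25 ysE).

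Globins carry oxygen as tetramers of alpha type and beta type chains. The first, primitive red cells arise in blood islands of the yolk sac mesoderm and use Hba-x, Hbb-bh1 and Hbb-y next to adult alpha chains, and they are known to express Hbb-bh1 early and Hbb-y later. Definitive red cells, made first in the fetal liver, use the adult alpha and beta genes. Transcription of these genes depends on red cell regulators such as Gata1 and Klf1, which bind GATA and CACCC motifs.

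On GRCm38.p6, the patch release of the mm10 build used for the files, Hba-x lay at chr11:32276600-32278116, Hba-a1 at chr11:32283672-32284486 and Hba-a2 at chr11:32296492-32297310, all on the plus strand. Hbb-bh1 lay at chr7:103841638-103843162 and Hbb-y at chr7:103851754-103853207, the latter on the minus strand. The transcript behind the Hbb-b1 row is annotated there as Hbb-bt, at chr7:103812524-103813923 on the minus strand. RefSeq promoters were found for 4 of the 7 genes, and the 150 bases before each annotated start are shown to set the embryonic and adult promoters side by side. Capitals mark the motif CACCC, the motif CCAAT and the motif GATA on either strand. In the last 40 bases they also mark TATA, and likewise the motif ATAAA, on the strand of the gene, and these can overlap each other.

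Hba-x: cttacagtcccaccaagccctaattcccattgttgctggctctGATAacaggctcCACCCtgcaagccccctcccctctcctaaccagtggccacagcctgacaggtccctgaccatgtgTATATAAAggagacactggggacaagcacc
Hba-a1: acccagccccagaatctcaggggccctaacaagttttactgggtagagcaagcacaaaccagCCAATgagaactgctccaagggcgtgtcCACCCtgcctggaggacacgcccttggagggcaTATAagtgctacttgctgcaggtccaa
Hba-a2: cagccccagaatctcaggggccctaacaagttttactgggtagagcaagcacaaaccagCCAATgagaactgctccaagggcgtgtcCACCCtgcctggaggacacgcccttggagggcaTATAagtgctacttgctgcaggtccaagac
Hbb-y: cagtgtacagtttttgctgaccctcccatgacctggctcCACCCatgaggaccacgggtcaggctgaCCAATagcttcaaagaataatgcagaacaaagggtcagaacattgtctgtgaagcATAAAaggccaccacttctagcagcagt

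These sequences (GRCm38.p6, read 5′ to 3′ along the gene) span chr11:32276450-32276599 for Hba-x, chr11:32283522-32283671 for Hba-a1, chr11:32296342-32296491 for Hba-a2 and chr7:103853208-103853357 for Hbb-y. All 4 held a CACCC within the 150 bases, at 95 to 91 bases before the start in Hba-x and at 60 to 56 in Hba-a1. CCAAT stood at 88 to 84 bases before the start of Hba-a1 and at 83 to 79 in Hbb-y, and these letters were not in the 250 bases before Hba-x. Hbb-y had ATAAA in place of TATA, at 28 to 24 bases before the start. Among 27025 RefSeq promoters, 51.3% held CACCC, 34.5% CCAAT and 54.1% GATA within 250 bases on either strand, and 8.0% held TATA and 5.86% ATAAA in the last 40 bases. The promoters of Hba-a1 and Hba-a2 were identical at 297 of 297 bases once shifted by 3 bases.

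The names of each adult pair also had nearly the same counts. Hba-a1 and Hba-a2 had equal counts in 8 of 11 libraries and differed by at most 4 reads in the others, and Hbb-b1 and Hbb-b2 had equal counts in 9 of 11 and differed by at most 1. The 7 genes were therefore read as 5 sets of reads, with each adult pair counted once under the row of Hba-a1 or of Hbb-b1, and these counts do not set one copy against the other. Each alpha name also had a second row, equal between both names, with 0% to 11.6% of its counts, and it was left out of the main values. Exon-part counts on another annotation, read for 5 libraries, put 88.1% to 100% of the alpha pair's reads on Hba-a1, and since the placing of shared reads is not known this was not read as a difference between the copies. How the authors counted reads with several matching places is not given in the sources used here. Another adult beta gene, Beta-s (Hbb-bs), has a row of its own and is not among the 7.

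The mesoderm held by far the most globin RNA, with 2.99% and 2.47% of all counts in its 2 libraries. The E9.25 ysE libraries gave 0.0596% and 0.0686%, that of E12.5 ysE 0.0155%, those of liver 0.187% and 0.253%, and the cystic EBs between 0.000797% and 0.00909%. In these bulk samples fewer red cells and less globin RNA per cell cannot be told apart.

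**Figure D1:**
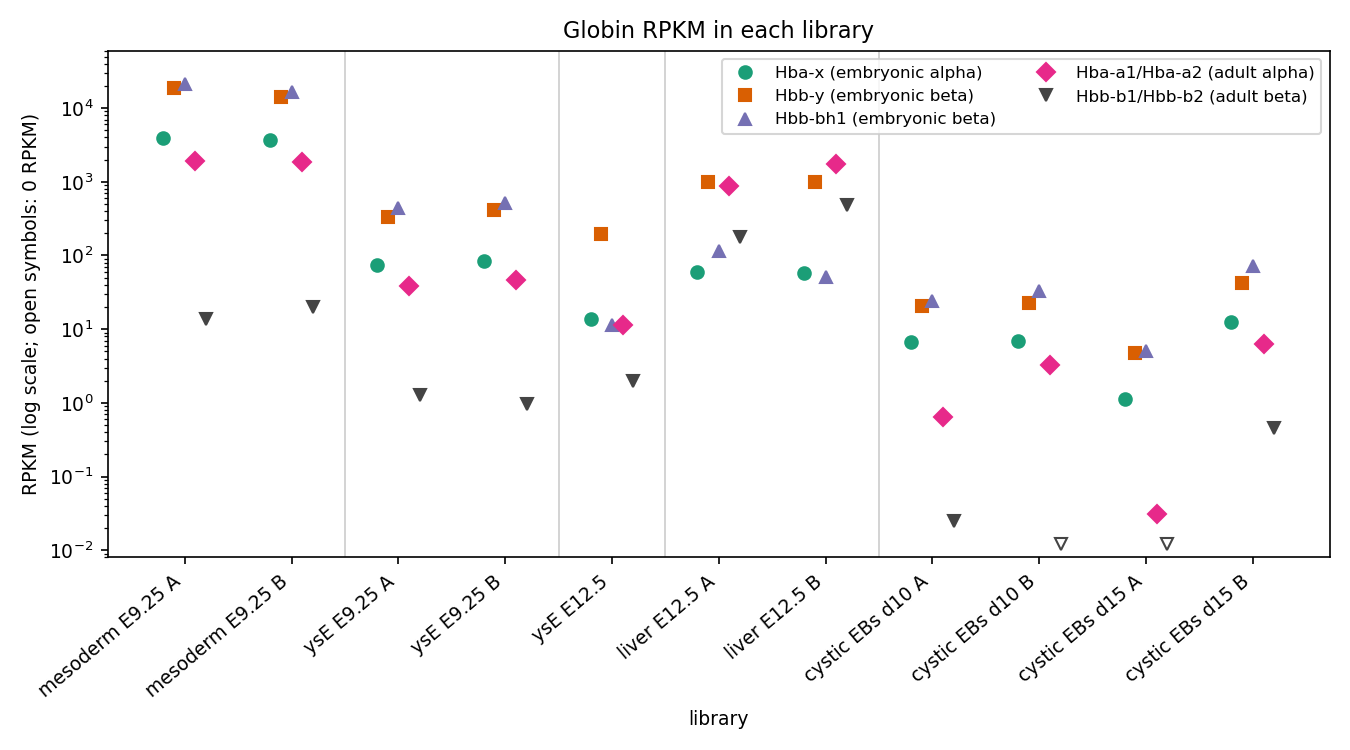
RPKM (reads per kilobase of transcript, scaled to the library's total, log axis) of the 5 globin read sets in each of the 11 libraries, with open symbols at 0 RPKM. Hbb-bh1 and Hbb-y stood at the top in mesoderm, E9.25 ysE and cystic EBs, Hbb-bh1 was 11.3 RPKM in E12.5 ysE against 198 for Hbb-y, and Hba-a1/Hba-a2 stood at 867 and 1739 RPKM in liver and at 1916 and 1857 in mesoderm.

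Hba-x, which encodes the embryonic alpha type chain, measured 3884 and 3741 RPKM in mesoderm, 73.6 and 83.7 in E9.25 ysE, 13.8 in E12.5 ysE and 59.4 and 58.6 in liver. In cystic EBs it was 6.67 (d10 A), 6.89 (d10 B), 1.14 (d15 A) and 12.6 RPKM (d15 B). The order of the means was mesoderm, E9.25 ysE, liver, E12.5 ysE and cystic EBs, and over all 11 libraries edgeR called neither liver and E12.5 ysE (adjusted p = 0.105) nor E12.5 ysE and cystic EBs (0.155) different, though both pairs were called without d15 A (0.00333 and 0.0365).

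Hbb-y measured 18741 and 13955 RPKM in mesoderm, 333 and 419 in E9.25 ysE, 198 in E12.5 ysE and 995 and 1004 in liver. The cystic EB libraries gave 20.3 (d10 A), 22.9 (d10 B), 4.69 (d15 A) and 42.4 RPKM (d15 B). Hbb-y was the only embryonic gene with a higher mean in liver than in E9.25 ysE, a pair that was not tested. The E9.25 and E12.5 ysE values were not called different (adjusted p = 0.517, edgeR). That fit takes its spread from all 5 groups, cystic EBs among them, and the call changed when only both ysE groups were fitted.

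Hbb-bh1 measured 21222 and 16453 RPKM in mesoderm, 444 and 516 in E9.25 ysE, 11.3 in E12.5 ysE and 115 and 51.8 in liver. In cystic EBs it reached 24.4 (d10 A), 32.6 (d10 B), 5.01 (d15 A) and 71.0 RPKM (d15 B). Here the libraries of liver and cystic EBs overlapped, and E12.5 ysE lay inside the range of the cystic EBs (adjusted p = 0.39, edgeR).

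The adult alpha pair, read as Hba-a1, stood at 1916 and 1857 RPKM in mesoderm, 38.0 and 45.9 in E9.25 ysE, 11.5 in E12.5 ysE and 867 and 1739 in liver. Cystic EBs gave 0.651 (d10 A), 3.31 (d10 B), 0.031 (d15 A) and 6.27 RPKM (d15 B), which rest on 23, 213, 1 and 435 reads. Mesoderm and liver, the leading tissues, were not called different (adjusted p = 0.842, edgeR).

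The adult beta pair, read as Hbb-b1, was the only set led by liver, with 176 and 482 RPKM. It was at 13.8 and 19.8 RPKM in mesoderm, 1.30 and 0.962 in E9.25 ysE and 2 in E12.5 ysE. In cystic EBs it had 1 read in d10 A, 0 in d10 B and d15 A, and 35 reads (0.451 RPKM) in d15 B. A count of 0 allows up to 3 reads, or 0.031 CPM (counts scaled to the library's total) in d10 B and 0.0627 in d15 A, which covers counting error only. Beta-s stood higher than this pair in mesoderm, at 134 and 196 RPKM, and lower in liver, at 132 and 292 RPKM.

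The embryonic to adult ratio divides the summed RPKM of Hba-x, Hbb-y and Hbb-bh1 by that of the adult alpha and adult beta sets, and being formed within a library it does not depend on depth. How reads shared between the adult copies were counted is not known, and the part of this in the adult sum was not tested. The ratio was 22.7 and 18.2 in mesoderm, 21.6 and 21.7 in E9.25 ysE and 16.6 in E12.5 ysE (95% exact counting interval 14.8 to 18.6). In liver it was 1.12 (1.11 to 1.13) and 0.501 (0.496 to 0.507). These values leave out Beta-s, and with it in the adult sum the liver ratios were 0.995 and 0.443, a setting chosen after seeing the data. The liver libraries lay below all 9 others, and those of mesoderm and E9.25 ysE overlapped. In cystic EBs the clone JN libraries gave 18.8 at d10 (16.4 to 21.7) and 18.8 at d15 (17.1 to 20.6), within the range from 16.6 to 22.7 of the yolk sac libraries. The clone A9 libraries gave 76.0 at d10 (50.9 to 119) and 349 at d15, the latter on 1 adult read against 380 embryonic ones with an interval from 62.3 to 13839. Both A9 intervals lie above those of the JN libraries. The JN, mesoderm and E9.25 ysE libraries were made with dUTP and the A9 and liver libraries with ScriptSeq. The part of the kit in this ratio was not tested.

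On the log2 scale the ratio was 4.35 ± 0.23 (SD, n = 2) in mesoderm, 4.44 ± 0.0040 (SD, n = 2) in E9.25 ysE, -0.42 ± 0.82 (SD, n = 2) in liver and 5.79 ± 2.01 (SD, n = 4) in cystic EBs. The cystic EB mean was 4.90 without d15 A, the library with 1 adult read, and 4.10 with a pseudocount of 1 RPKM. Liver was lower than mesoderm by 4.76 and lower than E9.25 ysE by 4.85 on that scale, each with p = 0.333 by an exact two-sided permutation test, the smallest p that 2 against 2 libraries allow. Liver minus cystic EBs was -6.21 with p = 0.133 by the same exact permutation test, the smallest p that 2 against 4 libraries allow in a two-sided test. The test takes the 4 EB libraries as independent, though they are 2 days of 2 clones. Of the 6 pairs of tissues compared, none could reach 0.05, and the Benjamini-Hochberg adjusted p from these exact permutation tests was 0.667 for each of the 3 pairs with liver. Mesoderm minus E9.25 ysE was -0.09 with exact permutation p = 1, inside the spread of mesoderm.

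**Figure D2:**
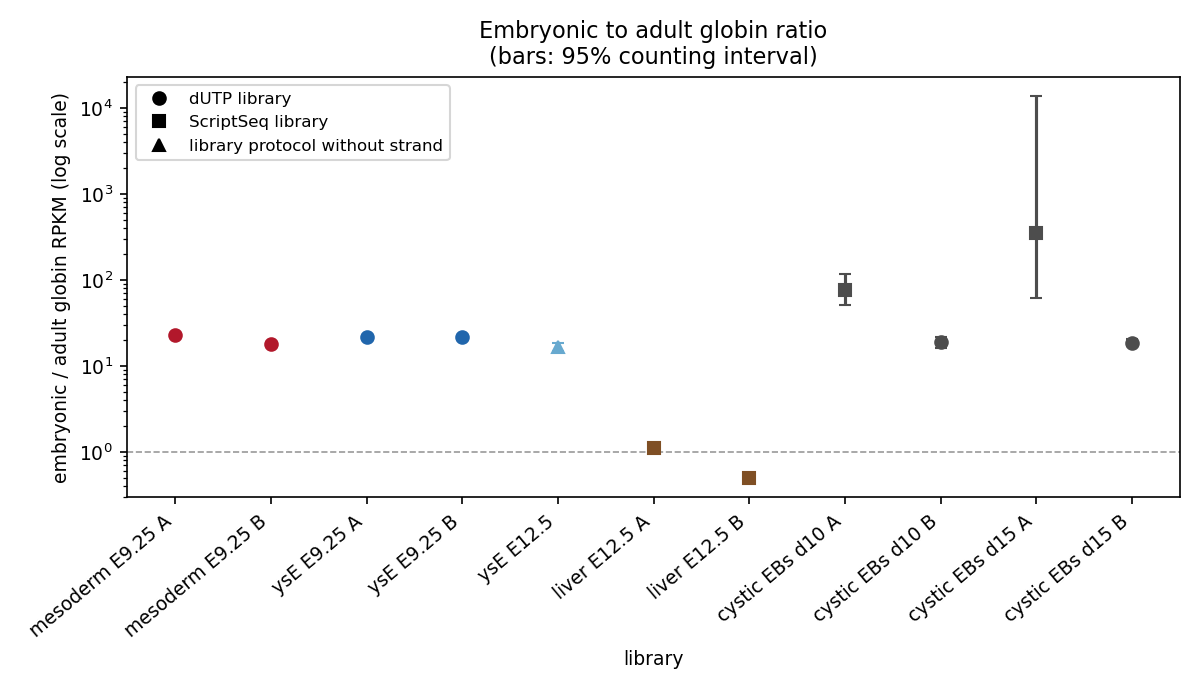
Ratio of embryonic to adult globin RPKM in each library on a log axis, with 95% exact counting intervals and symbols for the library kit. The 2 liver libraries lie at 1.12 and 0.501, the 5 yolk sac libraries and the 2 JN libraries of cystic EBs between 16.6 and 22.7, and the 2 A9 libraries at 76.0 and 349.

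The 2 globin clusters did not share this ratio equally. Adult genes made 33.0% and 33.2% of the alpha type RPKM in mesoderm, 34.0% and 35.4% in E9.25 ysE, 45.5% in E12.5 ysE, and 93.6% and 96.7% in liver. Of the beta type RPKM they made 0.0345% and 0.065% in mesoderm, 0.167% and 0.103% in E9.25 ysE, 0.945% in E12.5 ysE, and 13.7% and 31.4% in liver. These beta shares leave out Beta-s, and with it they were 0.37% and 0.705% in mesoderm, 1.59% and 0.897% in E9.25 ysE, 3.48% in E12.5 ysE, and 21.7% and 42.3% in liver, a comparison added after the values were seen. In liver, embryonic Hbb-y thus exceeded the adult beta pair in both libraries while adult alpha RNA exceeded Hba-x. The JN libraries of cystic EBs had adult alpha shares of 32.4% and 33.2%, near those of mesoderm and E9.25 ysE, against 8.89% and 2.66% in the A9 libraries. JN shares its kit with mesoderm and E9.25 ysE, and A9 with liver, and the part of the kit was not tested. With Beta-s left out, alpha over beta type RPKM was between 0.119 and 0.184 in all libraries outside liver, and 0.721 and 1.17 in liver. Adding Beta-s, at 132 and 292 RPKM in liver, would lower these values.

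The balance of both embryonic beta genes was set out after their values had been seen and is a description. Hbb-y over Hbb-bh1 was 0.883 and 0.848 in mesoderm, 0.748 and 0.812 in E9.25 ysE, and 0.834, 0.703, 0.935 and 0.597 in cystic EBs (d10 A, d10 B, d15 A, d15 B). At E12.5 it was 17.6 in ysE (15.6 to 19.8) and 8.67 and 19.4 in liver. Every E12.5 library was thus above 8 in this ratio and every other library below 1. The E12.5 libraries were made without strand (ysE) or with ScriptSeq (liver) and the E9.25 libraries with dUTP, and the part of the method in this ratio was not tested.

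**Figure D3:**
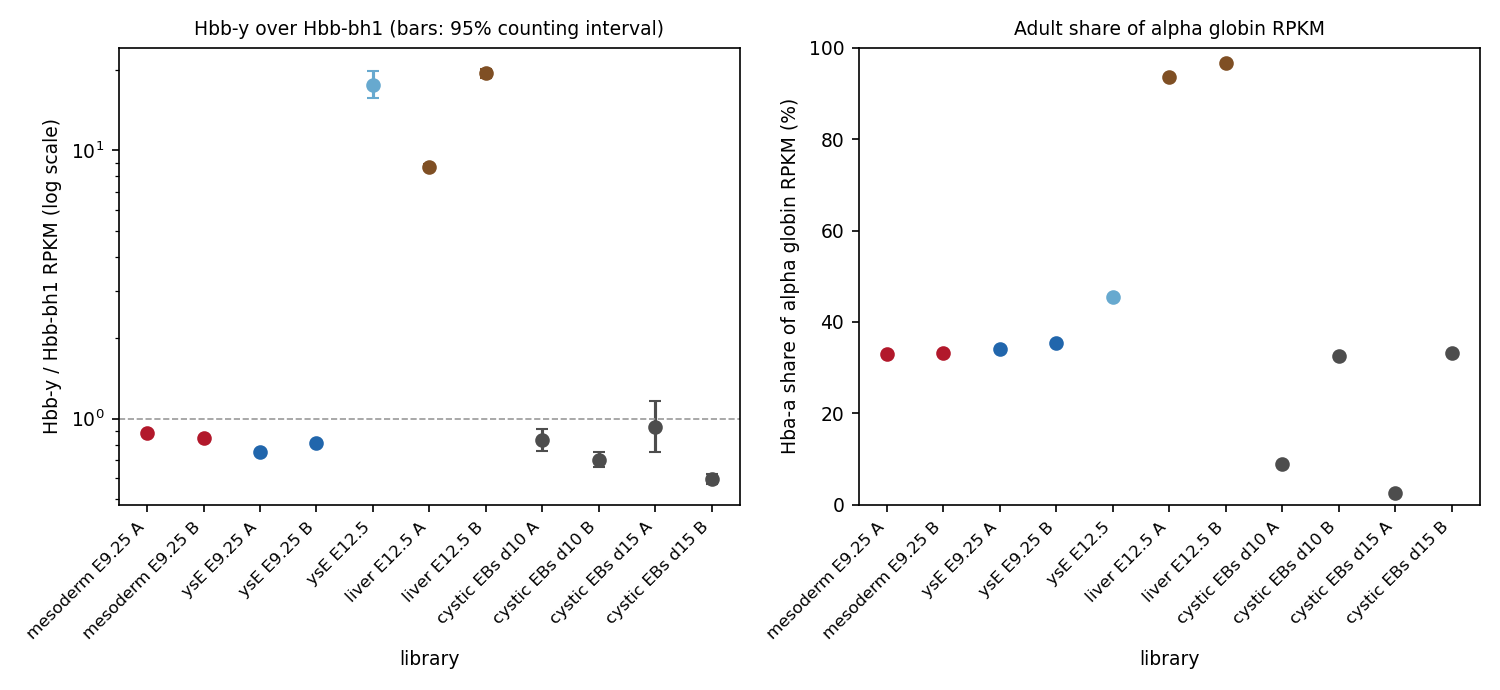
Left, Hbb-y over Hbb-bh1 RPKM in each library on a log axis with 95% exact counting intervals; right, the adult share of alpha globin RPKM in percent. E12.5 ysE and liver stand at 8.67 to 19.4 on the left, and the liver libraries stand alone at 93.6% and 96.7% on the right.

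The mesoderm of the E9.25 yolk sac was compared with the ysE of the same stage, both made with the dUTP method, to show how globin RNA divides between the layers. All 5 read sets were higher in mesoderm (edgeR's quasi-likelihood test, adjusted p under an FDR of 5%), where 16.9% of the 24858 transcripts tested were called higher and 13.7% lower. The log2 fold changes were 5.28 ± 0.84 (SE) for Hba-x (adjusted p = 0.00158, edgeR), 5.12 ± 0.81 for Hbb-y (0.00154), 4.97 ± 1.0 for Hbb-bh1 (0.00494), 5.17 ± 1.42 for Hba-a1/Hba-a2 (0.0211) and 3.58 ± 1.08 for Hbb-b1/Hbb-b2 (0.0312). Mean RPKM was 39.3 to 48.5 times as high in mesoderm for 4 of the sets and 14.9 times for the adult beta pair. Among 14 red cell genes, 13 were higher, with mean RPKM 32.3 times as high for Alas2 (first enzyme of heme synthesis in red cells), 25.5 times for Slc4a1 (the band 3 anion exchanger) and 31.7 times for Epb42 (protein 4.2 of the red cell membrane). The median log2 fold change was 5.12 over the globin sets and 4.49 over the red cell genes, beside 0.05 over all transcripts.

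Markers of other layers moved with the same comparison. The summed RPKM of 8 yolk sac endoderm markers was 1201 and 2107 in mesoderm against 10808 and 12019 in E9.25 ysE, with 6 of 8 called lower in mesoderm, and the summed RPKM of 6 endothelium markers was 226 to 285 against 14.3 to 18.2, with 6 of 6 higher. The part of carried-over mesoderm or blood in the ysE globin values was not tested. Leaving out an E9.25 ysE or a mesoderm library left a single library in that group. Some of the 5 globin calls were lost in each of these fits, where fewer of all transcripts were called too. All fold changes stayed between 3.26 and 5.38 on the log2 scale when single libraries were left out. DESeq2 gave the adult beta pair an adjusted p of 0.121.

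E12.5 liver was compared with E12.5 ysE, of which there is 1 library, so that its spread is assumed to be that of the other groups. Both adult read sets were higher in liver, by 6.78 ± 2.11 (SE) on the log2 scale for Hba-a1/Hba-a2 (edgeR adjusted p = 0.0254) and 7.32 ± 1.77 for Hbb-b1/Hbb-b2 (0.00802), where 23.7% of transcripts were called higher and 22.6% lower. The embryonic genes missed the threshold, with 2.07 ± 0.96 for Hba-x (edgeR adjusted p = 0.105), 2.30 ± 0.94 for Hbb-y (0.0713) and 2.86 ± 1.21 for Hbb-bh1 (0.0791), and DESeq2 called all 3 of them higher in liver. All 14 red cell genes were called higher in liver, and so were 6 of 6 endothelium markers (summed RPKM 54.5 and 60.1 against 2.83), whereas 8 of 8 yolk sac endoderm markers were lower (1637 and 2954 against 43834). The part of these other cells was not tested. With liver replicate B left out, Hba-a1/Hba-a2 was no longer called (edgeR adjusted p = 0.0577). All 5 sets were called without d15 A of the cystic EBs (6355 of 24847 transcripts called higher), and 4 without d15 B (6043 of 24544). Tissue and library kit cannot be told apart in this comparison.

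Liver was also set against the mesoderm, the other blood-forming tissue, with kit and stage differing as well as tissue. The embryonic genes were lower in liver, with log2 fold changes of -5.81 ± 0.87 (SE) for Hba-x (edgeR adjusted p = 0.00134), -3.83 ± 0.77 for Hbb-y (0.00466) and -7.61 ± 1.13 for Hbb-bh1 (0.00131), where 21.0% of transcripts were called lower. Hbb-b1/Hbb-b2 was higher by 4.48 ± 1.11 (0.012), where 17.8% were called higher. Hba-a1/Hba-a2 gave -0.34 ± 1.19 and was not called. Red cell genes pointed the other way from the embryonic globins, with 9 of 14 higher and 0 lower, and their median log2 fold change was 1.69 beside -0.09 over all transcripts. Markers of other cell types moved in this pair too, with summed RPKM in liver against mesoderm of 71.8 to 110 against 999 to 1157 for stroma (4 of 5 markers lower), 54.5 to 60.1 against 226 to 285 for endothelium (4 of 6 lower), 19.4 to 22.6 against 60.5 to 60.7 for macrophages (1 of 5 higher, 1 lower) and 576 to 1219 against 15.6 to 33.4 for liver parenchyma (5 of 5 higher). Their part in the globin values was not tested. Slc4a1 was higher by 2.53 ± 0.71 (edgeR adjusted p = 0.0202), whereas Alas2 (0.75 ± 0.45, adjusted p = 0.207, edgeR) and Epb42 (0.63 ± 0.42, adjusted p = 0.263, edgeR) were not called. The call of Hbb-b1/Hbb-b2 was lost without mesoderm replicate A or B or without liver replicate B, with fold changes from 3.60 to 4.80 in these fits.

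Regulators of globin genes were looked at through a list of 16. Against mesoderm, 11 were higher in liver and none lower, beside 17.8% and 21.0% of all transcripts. Klf1, an activator of adult beta globin, was higher by 1.08 ± 0.37 (edgeR adjusted p = 0.045) and Klf3, a related repressor, by 2.94 ± 0.25 (0.000228), whereas Gata1 (0.69 ± 0.25, adjusted p = 0.056, edgeR) and Klf2 (-1.38 ± 0.71, adjusted p = 0.149, edgeR) were not called. Bcl11a, a known repressor of embryonic beta type globins, had 45.5 times the mean RPKM of mesoderm in liver (log2 fold change 5.70 ± 0.87, edgeR adjusted p = 0.00151), and Myb, which is needed for definitive blood formation, 9.94 times (3.51 ± 0.54, 0.00148). Bcl11a and Myb were singled out after their values had been seen. In mesoderm against E9.25 ysE, 14 of the 16 regulators were higher (16.9% of all transcripts), among them Gata1 by 4.66 ± 0.30 (edgeR adjusted p = 0.000102) and Klf1 by 4.53 ± 0.43 (0.00021). In liver against E12.5 ysE, 14 of 16 were higher (23.7% of all transcripts).

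**Figure D4:**
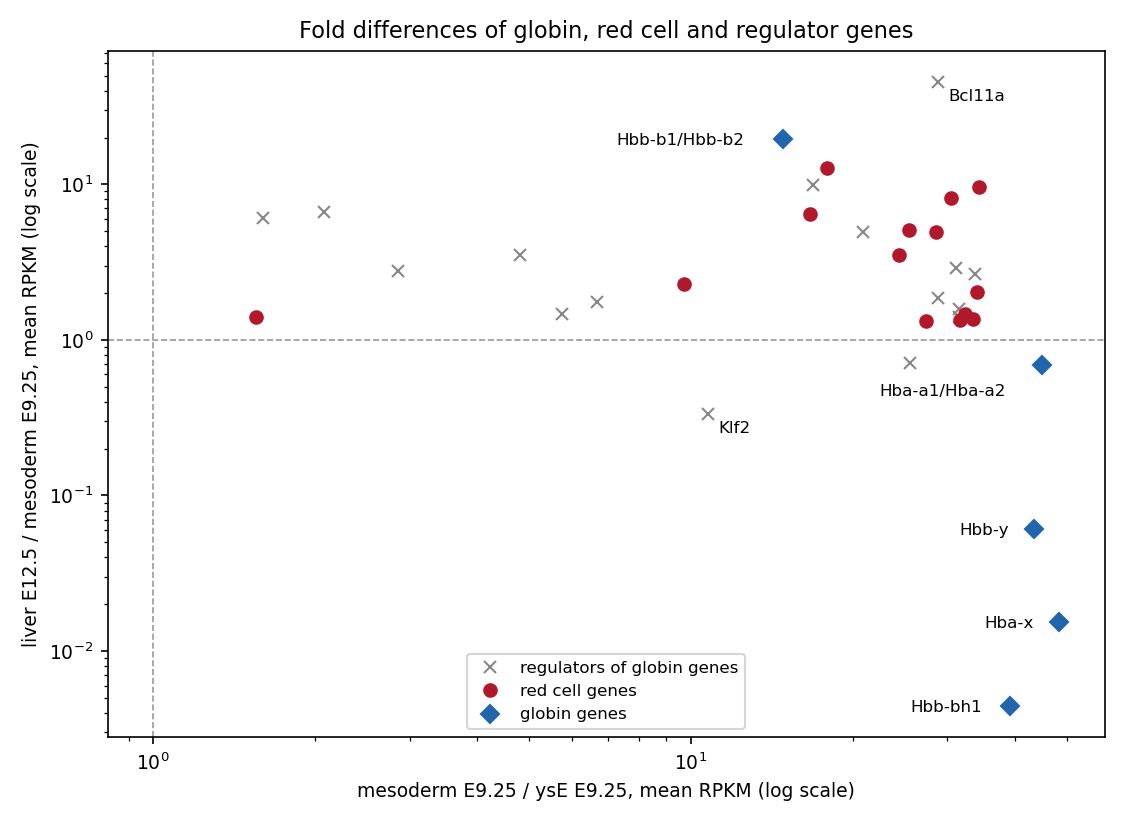
Mean RPKM in mesoderm over E9.25 ysE (horizontal) against liver over mesoderm (vertical), both on log axes, for the 5 globin read sets, 14 red cell genes and 16 regulators. Hba-x, Hbb-y and Hbb-bh1 lie at 0.0155, 0.0611 and 0.00442 on the vertical axis, where the red cell genes lie above 1 and the adult beta pair lies at 19.6.

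Cystic EBs were compared with each tissue as 4 libraries of both days. These are 2 days of 2 clones, which the edgeR fit took as independent. Its p in every comparison with cystic EBs can therefore be too small. Cystic EBs are cultures on a C57Bl/6x129 background, whereas the tissues came from FVB mice. Strain and culture therefore cannot be told apart from tissue in any of these comparisons. Against mesoderm all 5 read sets were lower, with log2 fold changes from -9.66 to -7.03 and edgeR adjusted p from 5.01e-05 to 0.0012, where 15.0% of transcripts were called lower and 13.9% higher. Against E9.25 ysE all 5 were lower as well, with -4.00 ± 0.61 (SE) for Hba-x (edgeR adjusted p = 0.000664), -4.53 ± 0.60 for Hbb-y (0.000307), -4.33 ± 0.73 for Hbb-bh1 (0.00121), -4.49 ± 1.04 for Hba-a1/Hba-a2 (0.00613) and -3.45 ± 0.96 for Hbb-b1/Hbb-b2 (0.0148), where 23.2% were called lower and 27.1% higher. The last call was lost without either E9.25 ysE library. Within the dUTP libraries, which leave clone JN alone in the EB group, all 5 sets were again lower against both, with -3.38 for Hba-x and -3.89 for Hbb-y against E9.25 ysE. These fits also called more of all 23265 transcripts, 6326 lower and 7847 higher against E9.25 ysE and 4978 lower and 4908 higher against mesoderm. Markers of other cells moved in the same comparisons, and their part was not tested. Stromal markers summed to 72.4 to 237 RPKM in cystic EBs against 999 to 1157 in mesoderm (2 of 5 called lower), and endothelium markers to 24.7 to 73.0 against 226 to 285 (5 of 6 lower). Pluripotency markers summed to 79.1 to 317 RPKM in cystic EBs and to at most 6.09 RPKM in any tissue library, with 4 of 4 called higher than in mesoderm, liver or E12.5 ysE and 3 of 4 than in E9.25 ysE. Red cell genes were lower too, with 13 of 14 lower against mesoderm and 11 of 14 lower against E9.25 ysE. Among the regulators 6 were called higher in cystic EBs and 3 lower in this pair, with -1.98 ± 0.23 for Gata1 (edgeR adjusted p = 0.000154), -2.43 ± 0.33 for Klf1 (0.000376), 3.72 ± 0.74 for Klf2 (0.00285) and 0.65 ± 0.21 for Klf3 (0.0275).

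Against liver, 4 of the 5 sets were lower in cystic EBs, where 20.9% of transcripts were called lower and 24.6% higher. The log2 fold changes were -3.47 ± 0.60 (SE) for Hba-x (edgeR adjusted p = 0.00158), -5.83 ± 0.62 for Hbb-y (0.000131), -9.32 ± 1.24 for Hba-a1/Hba-a2 (0.000391) and -11.51 ± 1.12 for Hbb-b1/Hbb-b2 (8.04e-05). Hbb-bh1 gave -1.70 ± 0.71 and missed the threshold (edgeR adjusted p = 0.0754), and it was called lower by DESeq2 (adjusted p = 0.0261), without d15 A or d15 B (edgeR adjusted p = 0.0395 and 0.0218), and within the ScriptSeq libraries, where clone A9 alone stands for the cystic EBs (-2.84, edgeR adjusted p = 0.0322, where 4929 of 22189 transcripts were called lower). All 14 red cell genes and 15 of the 16 regulators were lower in cystic EBs, and Klf2 was higher by 2.01 ± 0.67 (edgeR adjusted p = 0.0339). Other cell types moved as well, with summed RPKM in cystic EBs against liver of 7.02 to 66.5 against 576 to 1219 for liver parenchyma (5 of 5 markers lower), 0.599 to 5.20 against 98.6 to 158 for megakaryocytes (4 of 4 lower) and 4.61 to 7.52 against 19.4 to 22.6 for macrophages (4 of 5 lower), and their part was not tested.

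Of E12.5 ysE there is 1 library, made without strand, a method that no cystic EB library shares. Method and tissue cannot be told apart here, and the spread of that tissue is taken from the other groups. Against E12.5 ysE, 2 sets were lower in cystic EBs, with log2 fold changes of -3.53 ± 0.66 (SE) for Hbb-y (edgeR adjusted p = 0.00271) and -4.19 ± 1.16 for Hbb-b1/Hbb-b2 (0.0177), where 18.8% of transcripts were called lower and 21.1% higher. Hba-x (-1.40 ± 0.73), Hba-a1/Hba-a2 (-2.54 ± 1.19, edgeR adjusted p = 0.118) and Hbb-bh1 (1.16 ± 1.04) were not called. Hba-x was called without d15 A (-1.04, edgeR adjusted p = 0.0365) and Hba-a1/Hba-a2 without d15 B (-3.39, 0.0473). The call of Hbb-b1/Hbb-b2 was lost with DESeq2 (adjusted p = 0.0646). Red cell genes were called higher for 5 of 14 and lower for 1. Endothelium markers summed to 24.7 to 73.0 RPKM in cystic EBs against 2.83 (5 of 6 higher), stromal markers to 72.4 to 237 against 19.4 (3 of 5 higher) and yolk sac endoderm markers to 186 to 1605 against 43834 (8 of 8 lower), and their part was not tested.

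Between the ysE stages, 1 of the 5 sets passed. Hbb-bh1 was lower at E12.5, with a log2 fold change of -5.49 ± 1.41 (SE, edgeR adjusted p = 0.0431), where 4.57% of transcripts were called lower and 3.90% higher. The other sets gave -2.60 ± 0.99 for Hba-x (edgeR adjusted p = 0.138), -1.95 ± 1.61 for Hba-a1/Hba-a2 (0.491), -1.0 ± 0.88 for Hbb-y and 0.74 ± 1.25 for Hbb-b1/Hbb-b2 (0.756). The call of Hbb-bh1 rests on 1 E12.5 library made with another method, and it was lost in 7 of the 10 fits that left out 1 library (edgeR adjusted p from 0.0509 to 0.123 in these), while its fold change stayed between -5.57 and -5.35. The 14 red cell genes summed to 9.89 RPKM at E12.5 against 24.9 and 26.4 at E9.25, with 9 called lower. Hbb-bh2, another gene of the beta cluster, had 0 reads in the E12.5 library, next to 5296 reads (198 RPKM) of Hbb-y. A count of 0 allows up to 3 reads there. Hbb-bh2 had 41 and 56 reads in E9.25 ysE next to 24573 and 46453 of Hbb-y, and 11 and 2 in liver next to 55913 and 47415. Yolk sac endoderm markers summed to 43834 RPKM at E12.5 against 10808 and 12019. Afp alone gave 35558 of this sum against 6071 and 6628, and of the 8 markers 0 were called higher and 0 lower. The part of carried-over blood was not tested.

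**Figure D5:**
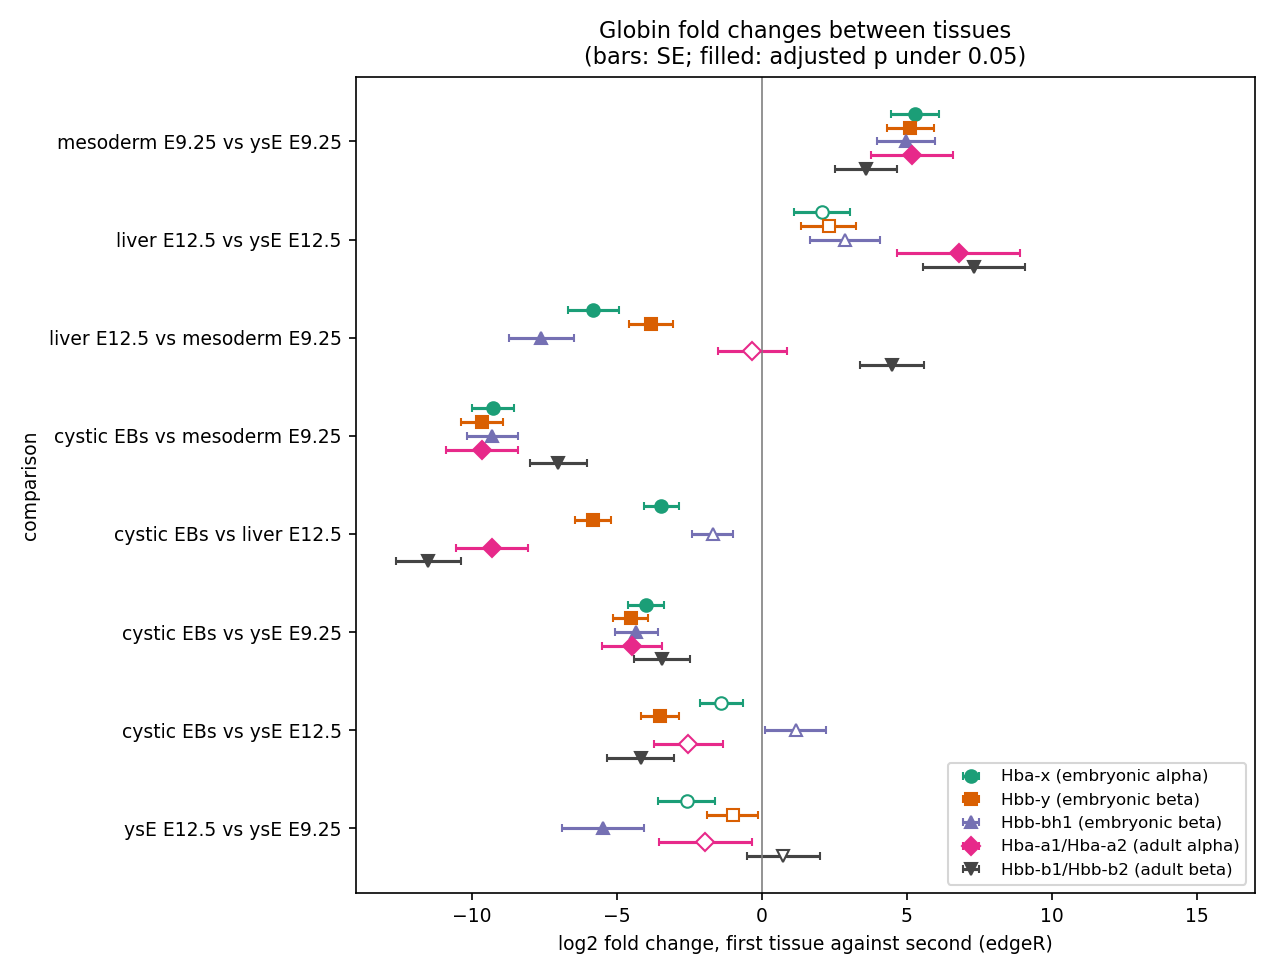
Log2 fold changes (edgeR, bars for 1 SE) of the 5 globin read sets in the 8 comparisons between tissues, first tissue against second, with filled symbols for an adjusted p under 0.05. All 5 sets were called higher in mesoderm than in E9.25 ysE and lower in cystic EBs than in either E9.25 tissue, and in liver against mesoderm Hbb-b1/Hbb-b2 lay at 4.48 and Hbb-bh1 at -7.61.

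Between d15 and d10 of cystic EBs, 0 of the 4 sets tested passed, as did 0% of 22452 transcripts by edgeR, of which 304 had an unadjusted p under 0.05 (DESeq2 called 11). With the clone as a replicate block, which fits the pairing of the samples, edgeR again called 0, and 2392 transcripts had an unadjusted p under 0.05. The log2 fold changes were -0.05 ± 1.05 (SE) for Hba-x, 0.04 ± 0.95 for Hbb-y, 0.33 ± 1.10 for Hbb-bh1 and 0.57 ± 1.85 for Hba-a1/Hba-a2 (edgeR adjusted p = 1 for each). Unadjusted p was over 0.05 for each of the 4. The clones went opposite ways, with Hbb-bh1 at 24.4 and 5.01 RPKM in A9 and 32.6 and 71.0 in JN at d10 and d15. With the clone as a replicate block, Hba-a1/Hba-a2, Hbb-y and Hbb-bh1 turned to -0.66, -0.59 and -0.55 and were not called.

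Other globins formed a list of 10, of which 7 had a row. Against E9.25 ysE, 4 were higher in mesoderm (16.9% of all transcripts), among them Hbq1b (theta globin, 5.08 ± 0.74 (SE), edgeR adjusted p = 0.00103), Hbb-bh2 (4.74 ± 0.76, 0.00158) and Beta-s (3.82 ± 1.01, 0.0179), while Hbq1a gave 2.98 ± 1.46 (0.153). In liver against mesoderm, Hbb-bh2 was lower (-6.96 ± 0.87, edgeR adjusted p = 0.000663), and Beta-s gave 0.55 ± 0.90 (0.654). Hbb-bh2 stood at 19.9 and 19.5 RPKM in mesoderm and at or under 0.614 RPKM in all other libraries.

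Genes with the pattern most like the globins were sought by Pearson's r of log2(RPKM + 1) over the 11 libraries among 7496 genes with a mean of 5 RPKM or more. For the embryonic sum they were Stab1 (a scavenger receptor of sinusoidal endothelium, r = 0.97), Lyve1 (a hyaluronan receptor of vessels, 0.96), Eps15 (endocytosis, 0.96), Uros (heme synthesis, 0.95) and Cited4 (a transcriptional co-regulator, 0.94). For the adult sum they included Josd2 (a deubiquitinase, r = 0.97), Urod (heme synthesis, 0.97) and Slc43a3 (a solute carrier, 0.97). These points share 11 libraries of 5 tissues, so that r mostly ranks tissue means. The mean of the filter was taken over all 11 libraries, so that a gene can pass it through mesoderm alone. Cited4, for example, had a mean of 20.9 RPKM in mesoderm and of at most 4.74 in any other tissue.

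DNA methylation was read at CpGs by bisulfite sequencing of E12.5 ysE, E12.5 liver and d15 cystic EBs from CastxFVB and FVBxCast crosses, 1 library each, with cystic EBs from 1 ES cell clone per cross. Counts are given as calls, the reads at each CpG summed over a region. A read over several CpGs gives several calls, so that calls are not independent and intervals formed from them can be too narrow. Over the alpha cluster with 1 kb to either side (chr11:32275600-32298310), 27 of 54 calls were methylated in CastxFVB ysE, or 50% (95% Wilson interval 37.1 to 62.9), and 5 of 28 in FVBxCast ysE, or 17.9% (7.88 to 35.6). Liver gave 64.5% (52.1 to 75.3) of 62 calls and 65.3% (55.3 to 74.1) of 95, and cystic EBs 91.5% (86.3 to 94.9) of 165 and 69.1% (58.4 to 78.1) of 81. Both ysE libraries were the lowest, and the upper limit of the higher one overlapped the liver intervals and that of the FVBxCast cystic EBs.

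Over the beta cluster (chr7:103811524-103854207), ysE had 38.1% (25.0 to 53.2) of 42 calls and 26.3% (16.6 to 39.0) of 57 methylated. Liver had 82.2% (73.1 to 88.8) of 90 and 67.4% (59.1 to 74.7) of 135, and cystic EBs 70.5% (60.7 to 78.8) of 95 and 71.6% (62.8 to 79.0) of 116, so that neither ysE interval met those of the other tissues. All of chromosome 7 stood at 68.0% and 59.7% (ysE), 78.8% and 78.6% (liver), and 85.5% and 81.2% (cystic EBs), and chromosome 11 at 69.9% and 62.5% (ysE), 76.8% and 79.8% (liver), and 86.0% and 81.5% (cystic EBs). With 2 libraries a tissue no test was made. Single genes with their flanks held at most 35 calls, too few to set genes apart. Intervals cover counting error only and take calls as independent, which limits the reading of which intervals meet.

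H3K4me3, a mark of active promoters, was mapped in 1 library of whole E12.5 VYS, which holds mesoderm and endoderm. Within 1 kb of the start, 59.2% of 17489 protein-coding genes had a peak, and none of Hba-x, Hba-a1, Hba-a2, Hbb-y and Hbb-b1 did. The nearest peak to the start lay 8400 bases away for Hba-x, 1710 for Hba-a1, 1580 for Hba-a2, 1230 for Hbb-y and 36578 for Hbb-b1. Of the 6 genes with coordinates, 3 had a peak within 1 kb of either end, all nearer the 3′ end, at chr11:32285382-32285850 past Hba-a1 (score 70.5), chr11:32298072-32298564 past Hba-a2 (score 51.05) and chr7:103851504-103851977 over the end of Hbb-y (score 61.1). These scores ranked at the 10.3, 0.589 and 6.13 percentiles of 22343 peaks, and 58.8% of 21781 protein-coding genes had a peak within 1 kb of either end.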

How the data were processed

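RNA-seq libraries were grouped by tissue and stage from the labels, with the 4 cystic EB libraries as 1 group, since the study treats them as replicates. The authors aligned reads with GSNAP to mm10, per the submitters' processing notes, and deposited 2 tables over RefSeq transcripts, raw counts and RPKM, both made with custom scripts and RSeQC. Exon-part counts deposited by the authors were used for 1 alternative, and 1 such E9.25 ysE file held only zeros. The bisulfite files deposited by the authors give the percent of methylated reads and the read count per CpG. H3K4me3 peaks and their score were deposited as called by MACS 1.4.2 from 1 library and its input. Every per-sample column was matched to a sample. The repeat table was not used.

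Counts of 24858 transcripts kept by filterByExpr were fitted with edgeR 4.0.16 (TMM, quasi-likelihood test, Benjamini-Hochberg over all transcripts, FDR 5%) over 11 libraries in 5 groups, tested on simulated data, and the d15 and d10 cystic EBs in a fit of their 4 libraries. Spread was estimated over all 5 groups together, so that the SE of a comparison between tissues carries the spread of the cystic EBs too. The transcript with the highest mean count stood for a gene. The ratio had been planned over all 4 adult names and was formed with each adult pair counted once, because the pairs share their reads; 4 names double the adult sum. Alternatives were DESeq2 1.42.0, limma 3.58.1 on log2(RPKM + 1), RLE scaling, other filters, single libraries left out, 1 library kit and a replicate block. Regions with at least 5 bisulfite calls, reads summed over CpGs, were kept. Intervals are 95% exact binomial (ratios) or Wilson (methylation), and cover counting error only. Promoters were read from RefSeq (GRCm38.p6).

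Members and lists were chosen with earlier results of these data known. The text names the 7 globin genes, at most the first 4 tested genes of each list, the 5 genes most like each globin sum, and genes said to be singled out; some genes that this rule names are not reported here. For d10 and d15 the letters A and B mark a clone, so they pair the samples (correlation of deviations 0.638). The other groups share only a letter. Each tissue sample for RNA is a pool of a whole litter, per the study's methods, and whether mesoderm and ysE of the same letter share a litter is not given in the sources used here. Cystic EB replicates are 2 clones. The depth of 40453779 to 169981821 counts per library sets the precision, and the cystic EB libraries held 381 to 10043 globin reads.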

Additional observations from a re-analysis of the deposited data

Results flagged for a closer look

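In the 4 cystic EB libraries, d15 B stood apart from the others in the adult beta pair. Hbb-b1 was at 0.451 RPKM and Hbb-b2, which shares its reads, at 0.463 RPKM there, against 0 to 0.026 RPKM in the other 3, and the gap to the nearest library passed Dixon's 95% critical share of the whole range (0.945 for Hbb-b1). Adult genes accordingly made 0.396% of its beta type RPKM, against 0 to 0.0559% in the others. The 3 values rest on the same 35 reads, chance flags about 1 group in 20, and the cause was not tested.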

How the results depend on the processing

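Of 773 fold changes of globin genes recomputed, 712 kept direction and call, 29 lost a call, 22 gained one and 10 turned. Of the 5 globin calls in mesoderm against E9.25 ysE, an FDR of 1% kept 3, where 2510 of 24858 transcripts were called higher and 1805 lower. Some of the 5 were lost when 1 library was left out, in fits that called fewer of all transcripts too. In liver against E12.5 ysE (2 calls), the FDR of 1% gave 1 (3525 transcripts called higher and 3938 lower), DESeq2 5 and a fit of only those groups 5. Over all transcripts, DESeq2 called 6856 higher and 5994 lower of 23513 and that fit 6923 and 6203 of 22341, against 5895 and 5626 of 24858. The count of globin calls also changed when 1 library was left out. In cystic EBs against E12.5 ysE (2 calls), the FDR of 1%, DESeq2, the fit of only those groups and limma gave 1 each. Over all transcripts they called 2688 higher and 3106 lower of 24858, 6184 and 5141 of 24067, 3306 and 3038 of 23073, and 5492 and 3494 of 28554. Between ysE stages (1 call), the count was 0 at the FDR of 1% (277 transcripts called higher and 195 lower), 2 with DESeq2 and 4 with only those groups (where 5270 were called higher and 5289 lower of 21023 transcripts). It also changed with 1 library left out. RLE scaling turned the calls over all transcripts there from 969 higher and 1137 lower to 1240 and 876, and DESeq2 gave 2046 and 1891. The larger side also changed in liver against mesoderm, from 4435 higher and 5219 lower to 4990 and 4654 (DESeq2 5828 and 5455), and in cystic EBs against mesoderm, from 3460 and 3727 to 3734 and 3480 (DESeq2 5047 and 4072). Hba-a1/Hba-a2 in liver against mesoderm ran from -0.90 to 0.065 with 1 library left out. Between d15 and d10 these ranges were -2.50 to 0.79 for Hba-x, -5.81 to 2.20 for Hba-a1/Hba-a2, -2.14 to 0.86 for Hbb-y and -2.44 to 1.21 for Hbb-bh1.

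A replicate block left the count of globin calls as it was in all 6 comparisons it could be fitted in (5 in mesoderm against E9.25 ysE, 4 in liver against mesoderm). With the clone as the block, Hba-a1/Hba-a2, Hbb-y and Hbb-bh1 gave -0.66, -0.59 and -0.55 for d15 against d10, uncalled as before. Pairs by letter in other tissues had correlations of deviations from -0.0859 to 0.174.

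The log2 ratio for mesoderm, E9.25 ysE, E12.5 ysE and liver was 3.35, 3.44, 3.05 and -1.42 with all 4 adult names summed, which counts shared reads again. The alpha cluster alone gave 1.02, 0.91, 0.26 and -4.38 (cystic EBs 2.66), and the beta cluster alone 11.04, 9.57, 6.71 and 1.89 (cystic EBs with adult reads 9.39), so that liver turned in the beta cluster. With Beta-s the beta cluster gave 7.61, 6.37, 4.80 and 1.15 (cystic EBs with adult reads 8.01). For E9.25 ysE it was 4.57 from raw counts, 4.41 with a pseudocount of 1 RPKM, 4.41 over all entries of a gene, 4.40 with the higher of Hba-a1 and Hba-a2 (E12.5 ysE 3.85) and 4.51 from exon parts. With Beta-s added to both clusters it was 4.15 (E12.5 ysE 3.55, liver -0.59). Both settings with Beta-s were chosen after seeing the data. The cystic EB ratio ran from 4.90 to 6.31 with 1 library left out and was 4.10 with the pseudocount. Liver ran from -0.996 to 0.16 with 1 library left out. Mesoderm minus E9.25 ysE turned to 0.10 for alpha, 1.47 for beta, 1.24 for beta with Beta-s, 0.076 with Beta-s in the combined ratio, and ran from -0.25 to 0.067 with 1 library left out (0.067 without mesoderm replicate B), and with a pseudocount of 1 RPKM mesoderm and E9.25 ysE exceeded cystic EBs by 0.24 and 0.31. The causes were not tested. Requiring overlap with the gene left 1 H3K4me3 peak in place of 3. Depth limits the adult globins in cystic EBs, with 1 to 470 reads.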
